A study of Mus musculus with 12 samples.

Results

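The genes described here are the mouse zinc finger genes whose symbol is Zfp followed only by digits and chosen by their mean level, at least 5 CPM over 12 RNA-seq libraries of muscle stem cells. Of the 22310 gene symbols counted, 336 carried such a name and 216 of those reached the minimum. CPM, the usual per-library abundance unit of RNA-seq, scales a gene's count to the total of all counts in genes of its library and takes no account of gene length. The minimum was applied to this plain CPM, so the members' overall level is what chose them and is given as a description only. Zfp420 at 5.12 CPM, Zfp59 at 5.18 CPM and Zfp13 at 5.21 CPM lay just inside it, and Zfp169 at 4.94 CPM, Zfp882 at 4.75 CPM and Zfp112 at 4.71 CPM just outside. The minimum took the mean over both genotypes: 18 members were under 5 CPM in the mean of the wild-type libraries and entered through the knockout libraries, and 6 were under it in the mean of the knockout libraries. Those 18, among them Zfp942, Zfp943, Zfp51, Zfp758, Zfp944, Zfp738, Zfp763, Zfp58 and Zfp788, had to be higher in knockout, so their fold changes below are a description of the choice. Values for the 192 members at 5 CPM or more in both means are given beside the main knockout counts and the fold changes by GC class. They are not given for other splits of the members or for correlations.

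Most of these genes encode proteins with tandem C2H2 zinc fingers, in which 2 cysteines and 2 histidines hold a zinc ion and the loop between them can read DNA. Many members also carry a KRAB box near the start of the protein, which recruits the corepressor Trim28 and, through it, the histone methyltransferase Setdb1 and HP1 proteins. KRAB zinc finger genes sit in clusters of recent duplicates and are best known for silencing transposable elements. The Zfp name also covers proteins of other kinds, such as Zfp36, a CCCH protein that binds AU-rich messenger RNA and speeds its decay.

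Satellite cells, the stem cells of skeletal muscle, were isolated from hindlimb muscle of C57BL/6 mice 3 days after a muscle injury, in which 50 µl of barium chloride (1.2%) went into some 20 places. All 4 groups carried this injury. They were wild type and knockout for Hoxa9, a homeobox transcription factor, each from young mice of 3 to 4 months and old mice of 22 to 28 months, with 3 libraries a group. Which part of Hoxa9 was deleted is not in the labels. Nor do they tie libraries to single animals, and the p-values cover only the spread among these libraries. In bulk cells, fewer cells of a type and less RNA per cell cannot be told apart.

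The shallowest library held 4193433 reads in genes and the deepest 20337015. Hoxa9 ran from 7.96 to 22.5 CPM over the wild-type libraries and from 4.55 to 7.21 CPM over the knockout ones, 6 of each and without overlap. Several measures moved with genotype or set libraries apart, and their part in the results below was not tested. Lars2, which encodes a mitochondrial leucyl-tRNA synthetase, took 0.0258% to 0.11% of the gene counts in wild-type libraries and 0.484% to 25.0% in knockout libraries. Old knockout replicates 2 and 3 held 125 and 151 CPM of the Y-linked gene Ddx3y, against at most 5.11 CPM in the other 10 libraries. Reads outside genes reached 70.8% in old knockout replicate 3 and 57.1% in old wild type replicate 2, with 32.2% as the lowest share in a library. Of 9 satellite cell markers, 1 was higher and 1 lower in old knockout, 3 were lower in young knockout and 2 were lower with age in wild type. Their summed level was 5817 to 6786 CPM in young and 5289 to 5612 in old wild-type libraries, and 4596 to 8064 in young and 5180 to 6370 in old knockout libraries. Of 6 choroid plexus markers, all 6 were lower in knockout at both ages (wild type, young 1580 to 6014 CPM and old 108 to 3447; knockout, young 10.9 to 25.8 and old 9.5 to 23.5; none at 0 in all libraries). Of 9 macrophage markers tested, 4 were lower in old knockout (18.1 to 78.2 CPM against 125 to 134 in old wild type). None of the 9 passed in young knockout (18.7 to 141 CPM against 22.3 to 37.6). Of 5 tendon markers, 4 were higher in old knockout (94.4 to 872 CPM against 35.5 to 50.3). Of 5 pericyte and smooth muscle markers, 3 were higher in old knockout (404 to 852 CPM against 312 to 372). Of 5 neutrophil markers, 3 were higher in old knockout (7.09 to 84.8 CPM against 2.52 to 6.86) and 1 was lower in young knockout (0 to 6.55 CPM against 6.79 to 9.38). Of 6 fibroblast markers, 2 were higher in old knockout (3709 to 4919 CPM against 2716 to 3198), and 1 was higher and 1 lower in young knockout (3891 to 4451 CPM against 5215 to 6139).

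To illustrate base composition, the coding sequence of a finger is shown for 3 members that were higher and 3 that were lower in knockout at both ages. Picked as extremes, these 6 do not show how finger composition goes with the change over the members. They had the largest summed log2 fold change over the 2 knockout comparisons among the members considered that have a finger of this exact spacing. Each run is the first such finger, 78 bases with the linker to the next finger, read 5′ to 3′ from GENCODE M21 transcripts (GRCm38), with the codons of the 2 cysteines and 2 histidines in capitals.
Zfp943: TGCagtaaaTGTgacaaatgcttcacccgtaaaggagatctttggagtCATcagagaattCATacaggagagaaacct
Zfp942: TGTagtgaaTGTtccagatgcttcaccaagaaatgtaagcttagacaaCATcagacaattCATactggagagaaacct
Zfp51: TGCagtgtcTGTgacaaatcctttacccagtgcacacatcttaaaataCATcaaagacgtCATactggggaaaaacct
Zfp865: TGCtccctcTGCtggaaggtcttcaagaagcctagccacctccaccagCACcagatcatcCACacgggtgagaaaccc
Zfp628: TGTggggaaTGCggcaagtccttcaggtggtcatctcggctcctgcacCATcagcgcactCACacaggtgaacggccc
Zfp513: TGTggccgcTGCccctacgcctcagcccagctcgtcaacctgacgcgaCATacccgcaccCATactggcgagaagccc

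The 3 members that were higher, Zfp943, Zfp942 and Zfp51, are KRAB genes on chromosome 17, and all 3 are among those that entered through the knockout libraries. Their fingers held 41%, 38.5% and 41% G and C, and each had 30.8% G or C at the third codon position. The 3 that were lower, Zfp865 and Zfp628 on chromosome 7 and Zfp513 on chromosome 5, had no KRAB box by the same search. Their fingers held 57.7%, 61.5% and 66.7% G and C, and 88.5%, 65.4% and 76.9% at the third codon position. The framework codons are the same amino acids in all 6, so the capitals differ only between TGC and TGT and between CAC and CAT. Over the 148 members with such a finger, GC content ran from 32.1% to 73.1% with a median of 50%, and from 19.2% to 100% at the third codon position.

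A KRAB box was found in 100 members and not in 115, and 1 member (Zfp783) had no coding sequence in the annotation. KRAB members had a median of 12 fingers and a median transcript GC content of 43.6%. Members without the box had a median of 7 fingers and 50.8% GC. Zfp142 had the most finger patterns, 36. No C2H2 pattern was found in 7 members, among them Zfp36 and Zfp703, a corepressor named in breast cancer. Chromosome 7 held 58 members and chromosome 17 held 25, of which 20 had a KRAB box and whose median GC content was 39.9%. Levels per length were lower in KRAB members, with a median of 3.04 CPM per kilobase of transcript against 8.79 in members without the box. Per kilobase, Zfp36 (83.7 CPM) and Zfp207 (79.6 CPM), a spindle assembly factor, were highest, followed by Zfp146 (55.2 CPM), the RNA-binding protein gene Zfp106 (51.8 CPM) and Zfp568 (50.6 CPM), a KRAB gene known to repress a placental promoter of Igf2.

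From here on, levels are CPM after trimmed-mean scaling, and a member is called where the quasi-likelihood test of edgeR over all 13540 tested genes gave a Benjamini-Hochberg adjusted p under 0.05. All 216 members were among the tested genes. Of the 10 members with the highest mean CPM, 6 were higher in young knockout (Zfp207, Zfp871, Zfp655, Zfp275, Zfp266 and Zfp644), 4 of them also in old knockout (Zfp655, Zfp275, Zfp266 and Zfp644), and Zfp106, Zfp568, Zfp36 and Zfp516 were called in no comparison. Over all genes tested, 10.9% were higher in young and 9.52% in old knockout. Zfp106 measured 604, 392 and 470 CPM in young wild-type libraries and 492, 514 and 504 in old ones, against 500, 425 and 438 in young knockout libraries and 469, 422 and 422 in old ones. Its adjusted p was 0.38 for knockout in old mice and 0.65 in young mice by edgeR. Zfp568 was at 374, 278 and 327 CPM in the young and 323, 343 and 345 in the old wild-type libraries, and at 409, 432 and 299 in the young and 370, 321 and 350 in the old knockouts, and it too was not called in any comparison. Zfp36 varied most between libraries of a group, with 98.2, 122 and 490 CPM in young knockout. Its young wild-type libraries held 389, 377 and 264 CPM, inside that range.

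Read by base composition, the members ordered the libraries by genotype. GC content here is the share of G and C in the longest protein-coding transcript, split into 5 classes. For each library, the median deviation of a class from the members' own 12-library means was taken on the log2(CPM + 0.5) scale. For the 27 members under 40% GC it was -0.74 to -0.68 in the young and -0.45 to -0.36 in the old wild-type libraries. Old knockout libraries lay at 0.46 to 0.60. Young knockout replicates 1 and 2 were at 0.73 and 0.87, and replicate 3 at -0.08. Of these 27 members, 17 were at 5 CPM or more in both means. The others entered through the knockout libraries and had to be higher there, so this class was partly ordered by the choice. For the 40 members of 55% GC or more the order turned, with 0.15 to 0.30 in the young and 0.16 to 0.20 in the old wild-type libraries, and -0.15 to -0.06 in the young and -0.27 to -0.21 in the old knockouts. Within a library, Spearman's rank correlation between a member's deviation and its GC content was 0.406 to 0.733 in the 6 wild-type libraries. It was -0.800 to -0.690 in 5 of the knockout libraries and -0.01 in young knockout replicate 3. Over all genes the same measure was 0.224 to 0.488 in wild type and -0.534 to -0.134 in knockout, with young knockout replicate 3 again nearest to 0. These correlations are across genes, which are not independent replicates and share the library, and carry no p. Correlations over the members, here and below, include those that entered through the knockout libraries.

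**Figure D1:**
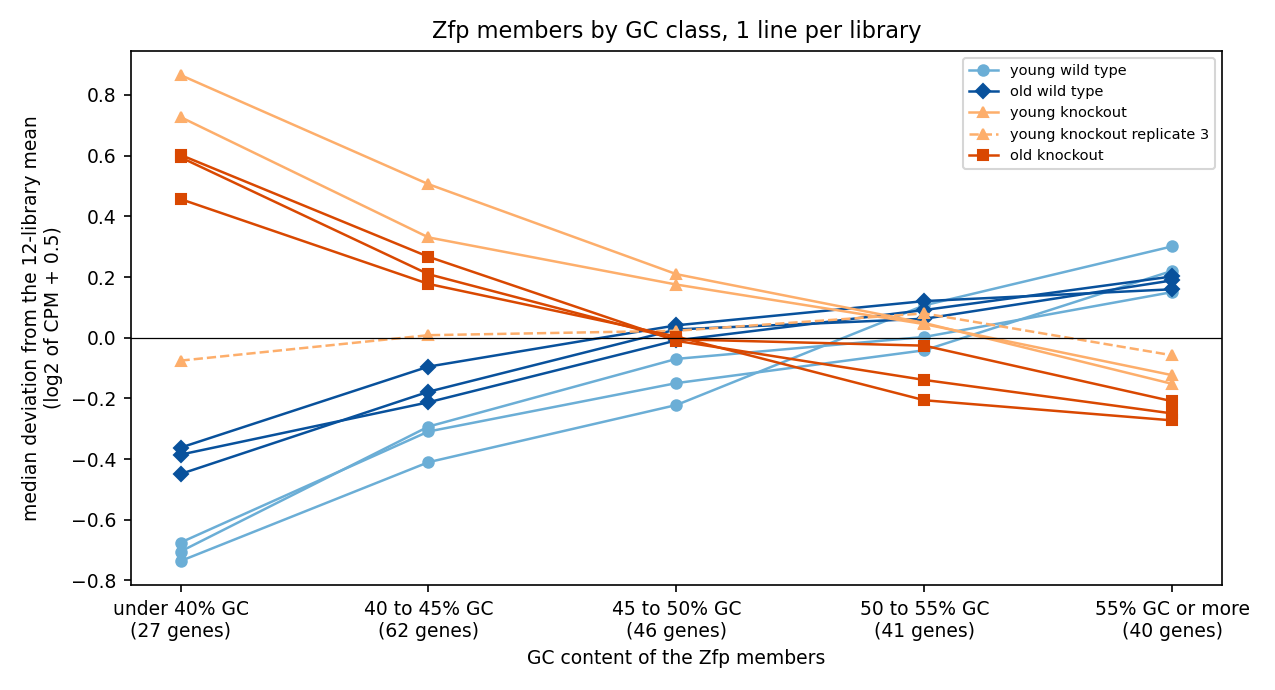
Median deviation of the Zfp members from their 12-library means (vertical axis, log2 of CPM + 0.5) in 5 classes of transcript GC content (horizontal axis), 1 line per library coloured by group. Wild-type lines run upward from -0.74 to -0.36 on the left, knockout lines run downward, and the dashed line of young knockout replicate 3 stays near 0. The lowest class includes members that entered through the knockout libraries.

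Knockout and wild type were first compared in old mice. Of the 216 members, 36 were higher and 24 lower in old knockout than in old wild type, 27.8% in all beside 16.7% of all genes tested (9.52% higher and 7.21% lower). The median log2 fold change was 0.06 over the members and -0.01 over all genes. Of the 192 members at 5 CPM or more in both means, 28 were higher and 23 lower (median 0.02). The calls divided by GC content. Under 40% GC, 19 of 27 members were higher and none lower, with a median of 0.99 against 0.61 over the 587 genes of that class. Without the 10 of them that entered through the knockout libraries, 11 of 17 were higher and the median was 0.70. Over the 416 genes of the class at 5 CPM or more in both means, 211 were higher and 2 lower, with a median of 0.61. At 55% GC or more, none of 40 was higher and 17 were lower, with a median of -0.46 against -0.28. At 5 CPM or more in both means, 17 of 38 were lower beside 416 of 2433 genes of the class, with medians of -0.42 and -0.22. Spearman's rank correlation between fold change and GC content was -0.748 over the members and -0.448 over all genes.

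The largest rises were in KRAB genes of low GC content. Zfp943 measured 14.7, 12.6 and 16.6 CPM in old knockout and 3.51, 4.17 and 3.75 in old wild type, a 3.81-fold difference (log2 1.93). Every old knockout library lay above every old wild-type library, and it is a gene that reached the minimum through the knockout libraries. Zfp942 (log2 1.72) and Zfp51 (1.67), its neighbours in the same chromosome 17 cluster, and Zfp758 (1.62), Zfp944 (1.38) and Zfp81 (1.32), also on chromosome 17, followed, with Zfp738 (1.22) on chromosome 13 and Zfp120 (1.21) on chromosome 2. Of these, Zfp81 and Zfp120 reached 5 CPM in both means and the others only through knockout. Genes of such clusters share near-identical stretches, so reads may align to several of them and their single values are uncertain. In whole libraries, alignments listed as not unique numbered 1.27 to 7.54 per read counted in genes, the most in old knockout replicate 3. Their part in the values of these genes was not tested. Among members without a KRAB box, Zfp654 rose from 7.85 to 8.92 CPM in old wild type to 18.5 to 19.4 in old knockout (log2 1.18, SE 0.19, adjusted p = 0.0029 by edgeR). Zfp367 rose from 23.9 to 36.6 CPM to 66.3 to 69.7 (log2 1.15, SE 0.22, adjusted p = 0.0064 by edgeR). In both genes the groups did not overlap.

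The largest falls were in members without a KRAB box, apart from Zfp566 and Zfp82. Zfp395 measured 6.31, 5.35 and 4.36 CPM in old knockout and 15.1, 15.7 and 13.7 in old wild type (log2 -1.45, SE 0.30, adjusted p = 0.0077 by edgeR). Zfp865 measured 23.0, 21.9 and 22.7 CPM against 46.9, 56.7 and 41.4 (log2 -1.10, SE 0.16, adjusted p = 0.0018 by edgeR). In both, all old knockout libraries were low and the groups stood apart. Zfp609, whose product binds the cohesin loader Nipbl, fell by 1.09 on the log2 scale, Zfp579 by 1.17, Zfp362 by 1.08, Zfp687 by 0.88, Zfp628 by 0.84 and Zfp513, known from inherited retinal disease, by 0.83. Zfp566 fell from 15.8, 14 and 10.8 CPM to 4.96, 5.96 and 4.65 (log2 -1.36, SE 0.29, adjusted p = 0.0095 by edgeR). Exons of Zfp865 overlap Zfp784 on the other strand, and Gm44973 and 4632433K11Rik on the same strand. Those of Zfp687 overlap Pi4kb on the other strand, and Zfp566 and Zfp82 share an annotated readthrough transcript. Reads of these genes may not be separable.

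When the GC trend of each library was entered as an offset, 18 members were called in old mice, 8 higher and 10 lower, beside 7.4% of all genes (4.15% higher and 3.25% lower). The median went to -0.03. Of the 36 members higher without offsets, 7 were still higher: Zfp275, Zfp281, Zfp367, Zfp521, Zfp62, Zfp942 and Zfp943. Of the 24 lower, 9 were still lower: Zfp362, Zfp395, Zfp566, Zfp579, Zfp609, Zfp687, Zfp710, Zfp82 and Zfp865. These calls rested on the libraries kept: 1 to 11 members were called with offsets when 1 of the 6 libraries was left out. Of the 16, Zfp521 was called in all 6 such fits, Zfp865 in 4, and Zfp579, Zfp710 and Zfp943 in none. The members under 40% GC had a median of 0.41 with offsets where all genes of that class were at 0.03. For those at 5 CPM or more in both means it was 0.17 against 0.02. The rank correlation over the members was -0.313 where all genes were at -0.02. With library size as the only scaling, the median of all genes moved to -0.26, and the split of member calls was 16 higher and 35 lower. Without old wild type replicate 2 and old knockout replicate 3, the pair with most reads outside genes, 0 members were called by edgeR (3 of all genes), although the median under 40% GC was 0.96 and at 55% GC or more -0.43. Without the old knockout pair with Y-linked reads, 4 members were called, with the lone library left in that group assumed to vary like the others.

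In young mice the members were shifted upward as well as ordered by GC content. Higher in knockout were 77 members and lower 16, 43.1% in all beside 20.9% of all genes tested (10.9% higher and 10% lower). The median log2 fold change was 0.31 over the members and -0.02 over all genes, and 155 members had a positive value. Of the 192 members at 5 CPM or more in both means, 60 were higher and 16 lower (median 0.27). Under 40% GC, 26 of 27 were higher, with a median of 1.38 against 0.82 over all genes of the class. At 5 CPM or more in both means, 16 of 17 were higher beside 268 of 416 genes of the class, with medians of 1.27 and 0.76. At 40 to 45% GC, 39 of 62 were higher, with a median of 0.77 against 0.44. At 5 CPM or more in both means, 32 of 54 were higher beside 716 of 1861 genes of the class, with medians of 0.69 and 0.44. At 55% GC or more, none of 40 was higher and 12 were lower, with a median of -0.30 against -0.37. At 5 CPM or more in both means, 12 of 38 in this class were lower beside 732 of 2433 genes, with medians of -0.36 and -0.36. The rank correlation with GC content was -0.824 over the members and -0.562 over all genes.

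Zfp942 led with 14.8, 19.1 and 6.71 CPM in young knockout against 3.30, 3.55 and 2.89 in young wild type (log2 2.09), and it too had reached the minimum through the knockout libraries. Replicate 3 was the lowest of the knockout libraries and still above wild type. Zfp943 measured 15.6, 18 and 3.23 CPM against 3.15, 3.24 and 2.73 (log2 2.05), so here replicate 3 was level with the wild-type libraries and the groups overlapped. Replicate 3 was the lowest young knockout library in 62 of the 77 members called higher and at or below the highest wild-type library in 9 of them. Replicates 1 and 2 were above every wild-type library in all 77. Zfp654 rose to 29.3, 31.3 and 20.6 CPM from 8.59, 6.17 and 8.02 (log2 1.83, SE 0.19, adjusted p = 0.00027 by edgeR), with all knockout libraries above all wild-type ones. The other leading rises were in KRAB genes: Zfp738 (log2 1.73), Zfp930 (1.67), Zfp160 (1.67), Zfp81 (1.58), Zfp763 (1.58), Zfp58 (1.57), Zfp788 (1.57) and Zfp182 (1.43). Among them Zfp738, Zfp763, Zfp58 and Zfp788 were under 5 CPM in the wild-type mean. Exons of Zfp58 and of Zfp87 both overlap Gm26965 on the same strand, so their reads may not be separable.

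Among the falls, Zfp865 measured 23.6, 20.2 and 21.6 CPM in young knockout against 58.7, 58.0 and 44.8 in young wild type (log2 -1.30, SE 0.16, adjusted p = 0.00057 by edgeR). Its 6 knockout libraries of both ages lay within 20.2 to 23.6 CPM, below all 6 wild-type libraries. Zfp703 fell from 171, 131 and 135 CPM to 70.1, 42.2 and 81.0 (log2 -1.18, SE 0.23, adjusted p = 0.0038 by edgeR). Zfp395 (log2 -1.17), Zfp362 (-1.11), Zfp628 (-1.10), Zfp579 (-0.90), Zfp574 (-0.79), Zfp513 (-0.78), Zfp687 (-0.72) and Zfp609 (-0.71) also fell, all at 50% GC or more and none with a KRAB box.

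With GC offsets, 20 members were called in young mice, 18 higher and 2 lower, beside 5.83% of all genes (2.57% higher and 3.26% lower). The median over the members, among them the 18 that entered through the knockout libraries, was 0.22 and so smaller than without offsets. Over all genes it was 0.02. The members' median was 0.58, 0.27, 0.16, 0.21 and 0.12 in the 5 GC classes from low to high, where all genes ran from 0.01 to 0.05. At 5 CPM or more in both means the same medians were 0.41, 0.20, 0.16, 0.24 and 0.10, with all genes at -0.01 to 0.02. With offsets, the rank correlation with GC content was -0.331 over the members where all genes were at -0.012. Called both without and with offsets were 15 higher members and 2 lower ones, Zfp628 and Zfp865. The highest ranked by adjusted p were Zfp397 (log2 0.73 with offsets), Zfp217 (0.85), Zfp654 (0.93), Zfp62 (0.58), Zfp275 (0.55), Zfp105 (0.79), Zfp869 (0.68), Zfp58 (1.05) and Zfp623 (0.53). Zfp191 and Zfp266 changed sign with offsets, Zfp266 from 0.65 to -0.03. Of the 17 called both ways, Zfp217, Zfp397 and Zfp654 were called in all 6 fits with offsets that left out 1 library. Without young knockout replicate 3, 42 members were called with offsets (37 higher and 5 lower), and without replicate 2 only 4. The shares of all genes called in these fits are not given.

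**Figure D2:**
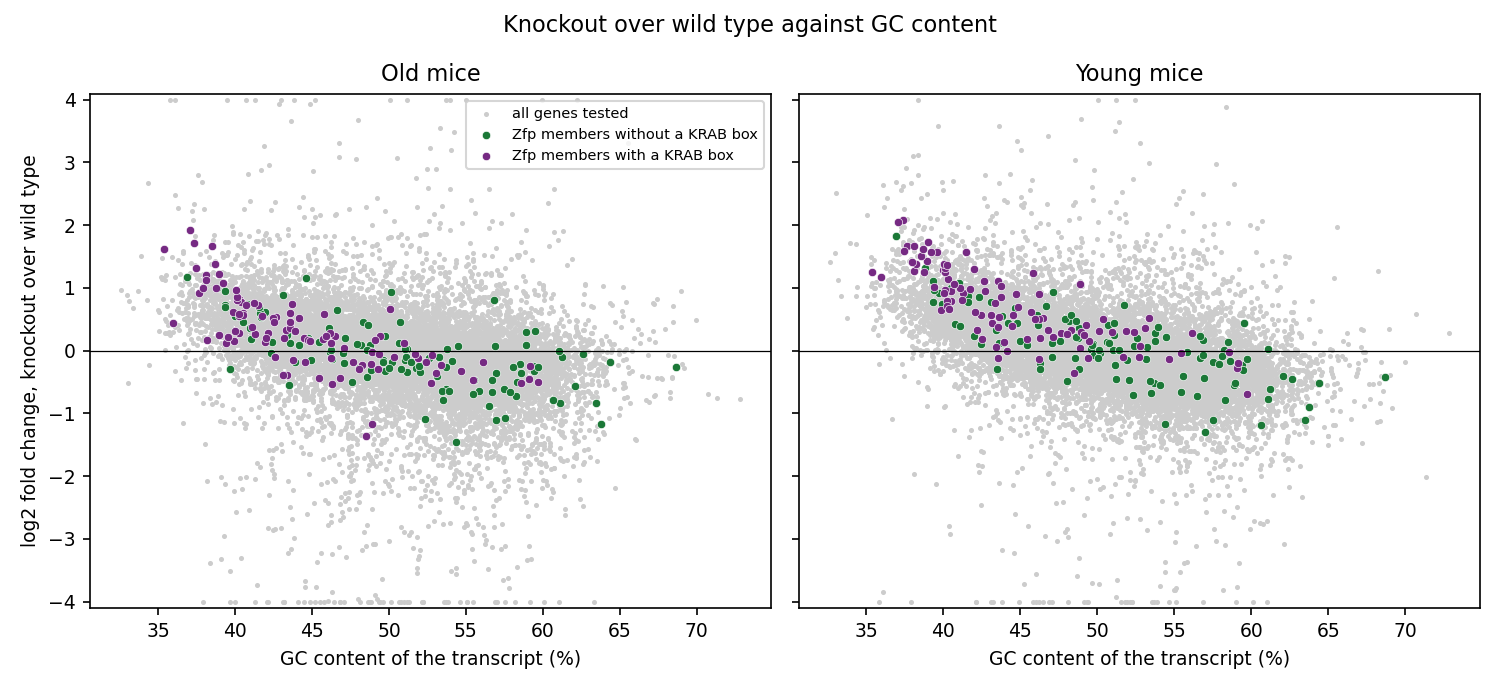
Log2 fold change of knockout over wild type (vertical axis) against transcript GC content in percent (horizontal axis), in old mice on the left and young mice on the right. Grey points are all genes with a GC value, with those beyond the vertical range drawn at its edge, and coloured points are 215 Zfp members with and without a KRAB box; both colours slope down with GC content, with rank correlations of -0.748 in old and -0.824 in young mice over the members.

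**Figure D3:**
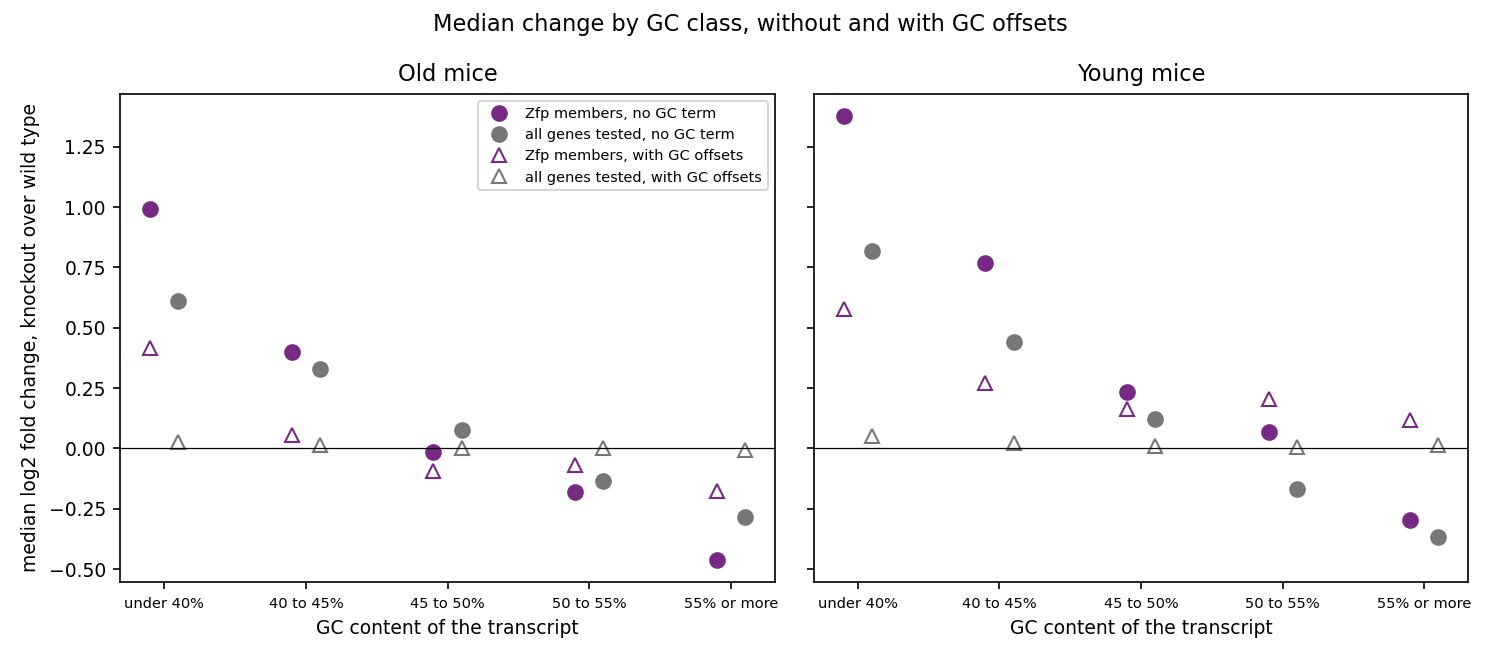
Median log2 fold change of knockout over wild type (vertical axis) by class of GC content (horizontal axis) for the Zfp members and for all genes tested, without a GC term (filled) and with GC offsets (open). Offsets bring all genes to near 0 in every class, while the members under 40% GC are at 0.41 in old and 0.58 in young mice, or 0.17 and 0.41 for those at 5 CPM or more in the means of both genotypes.

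The members with and without a KRAB box differ in GC content, and their counts are given first overall and then within GC classes. In old mice 20 of 100 KRAB members were higher and 4 lower (median 0.23), and of 115 members without the box 16 were higher and 20 lower (median -0.14), beside 9.52% higher and 7.21% lower over all genes. In young mice 52 KRAB members were higher and 1 lower (median 0.63), against 25 higher and 15 lower without the box (median 0.09), beside 10.9% and 10% over all genes. From the lowest to the highest GC class, KRAB members had medians of 1.04, 0.46, -0.09, -0.11 and -0.46 in old mice, and members without the box 0.73, 0.31, 0.00, -0.18 and -0.42. In young mice the KRAB medians were 1.47, 0.81, 0.29, 0.30 and -0.11, and those without the box 0.97, 0.44, 0.14, 0.01 and -0.41. The lowest class held 7 members without the box and the highest 6 with it. No test of the difference between these sets was made. The sets include the 18 members that entered through the knockout libraries, of which 8 were called higher in old and 17 in young mice. They were not taken out here, so these counts and medians are partly a description of the choice.

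The 2 knockout comparisons share no library, and each call is given as a share of both lists. Higher at both ages were 34 members, 94.4% of those higher in old mice and 44.2% of those higher in young mice, where the shares over all genes were 60.5% and 52.8%. Among the 34, Zfp229, Zfp51, Zfp738, Zfp758, Zfp788, Zfp942, Zfp943 and Zfp944 had entered through the knockout libraries. For these the agreement between ages is partly a description of the choice. Lower at both ages were 13 members, 54.2% and 81.3%, beside 51.6% and 37.2% over all genes. With GC offsets, 3 members were higher at both ages, Zfp275, Zfp62 and Zfp942, and 1 was lower, Zfp865. Leaving out 1 library, Zfp62 was called with offsets in 1 of 6 fits in old and 5 of 6 in young mice, Zfp275 in 3 and 3, Zfp942 in 1 and 1, and Zfp865 in 4 and 5. Zfp62 measured 41.2, 34.7 and 42.7 CPM in young wild-type libraries and 40.8, 42.7 and 42.4 in old ones, against 92.8, 114 and 89.2 in young knockout libraries and 80.7, 77.6 and 92.7 in old ones. All 6 knockout libraries were above all 6 wild-type libraries (log2 0.99 in old and 1.32 in young mice). With offsets its log2 fold change was 0.42 in old mice (adjusted p = 0.030 by edgeR) and 0.58 in young mice (adjusted p = 0.013 by edgeR). Zfp275 on the X chromosome was at 130, 111 and 126 CPM in the young and 101, 114 and 112 in the old wild-type libraries, and at 192, 226 and 185 in the young and 181, 170 and 165 in the old knockouts. It too separated the genotypes without overlap, and offsets moved it little, from 0.66 to 0.54 in old and from 0.72 to 0.55 in young mice.

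**Figure D4:**
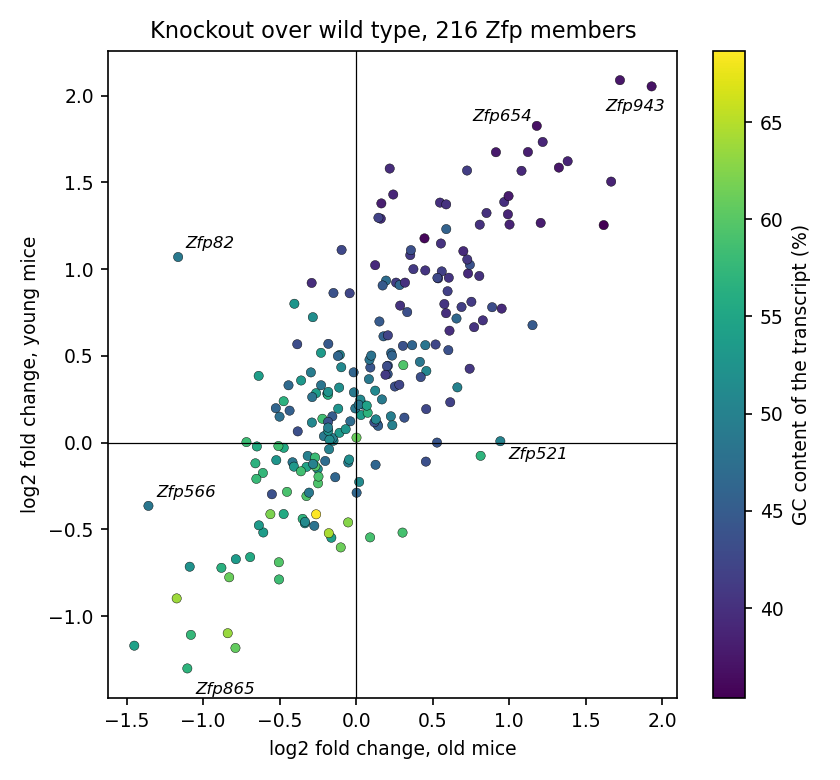
Log2 fold change of knockout over wild type in old mice (horizontal axis) and in young mice (vertical axis), 1 point per Zfp member, coloured by transcript GC content in percent. Low-GC members lie at the upper right and high-GC members at the lower left, and Zfp82 lies far to the upper left.

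The age comparison asks how the members differ between young and old mice without the knockout. Between young and old wild type 4 members were called, 2 higher and 2 lower, 1.85% of the members beside 1.06% of all genes tested (0.258% higher and 0.805% lower). Zfp52, a KRAB gene on chromosome 17, rose from 6.21, 4.01 and 6.33 CPM to 18.1, 13.6 and 16.3 (log2 1.51, SE 0.29, adjusted p = 0.027 by edgeR). Zfp82, a KRAB gene on chromosome 7, rose from 5.14, 5.71 and 4.89 CPM to 12.7, 10.1 and 12.7 (log2 1.18, SE 0.25, adjusted p = 0.039 by edgeR). In both genes every old library was above every young one. Zfp521, a cofactor that opposes Ebf proteins in several lineages, fell from 128, 90.3 and 90.4 CPM to 44.7, 51.3 and 46.0 (log2 -1.12, SE 0.16, adjusted p = 0.0064 by edgeR). Zfp536, a regulator named in neuronal differentiation, fell from 16.6, 14.2 and 15.7 CPM to 4.74, 7.85 and 5.72 (log2 -1.36, SE 0.27, adjusted p = 0.030 by edgeR). The old libraries were low in both, without overlap.

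The same 4 were called with GC offsets, beside 0.968% of all genes. Leaving out any 1 of the 6 libraries left 0 or 1 member called: 0 without old wild type replicate 1 or replicate 3, and 1 without each of the other 4. A fit of the wild-type groups alone called 16 members. KRAB members had a median log2 fold change of 0.26 with age and 80 of 100 positive values, members without the box 0.01 and all genes 0.01. These are values without offsets, and KRAB members are lower in GC content. Spearman's rank correlation of the change with age and GC content was -0.353 over the members and -0.151 over all genes. With GC offsets it was -0.169 and 0.008. The part of GC content in the KRAB median was not tested. Groups did not overlap in 55 members that were higher in old wild type (13.1% of all genes did so) and 21 that were lower (13.8% of all genes). In young and old wild type, summed macrophage markers were 22.3 to 37.6 and 125 to 134 CPM (0 of 9 called), and summed fibroblast markers 5215 to 6139 and 2716 to 3198 CPM (2 of 6 lower). Summed pericyte and smooth muscle markers were 452 to 809 and 312 to 372 CPM (1 of 5 lower), and summed tendon markers 86.4 to 188 and 35.5 to 50.3 CPM (0 of 5 called). Their part in these changes was not tested.

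Old wild type is also the reference of the knockout comparison in old mice, so the values of these 4 genes in that comparison are not independent of their change with age. Zfp521 measured 82.0, 88.0 and 103 CPM in old knockout and 105, 116 and 89.4 in young knockout, so that old wild type was the low group of the 4. It was higher in old knockout than in old wild type (log2 0.94, SE 0.16, adjusted p = 0.0035 by edgeR), with GC offsets as well (0.98, adjusted p = 0.0079 by edgeR). In young mice its log2 fold change was 0.01 (adjusted p = 0.98 by edgeR). Old knockout libraries held 11.6, 7.76 and 13.4 CPM of Zfp536, a change of 0.81 (log2) that missed the threshold (adjusted p = 0.058 by edgeR) and of 1.08 with offsets (adjusted p = 0.037 by edgeR). Zfp52 measured 20.0, 17.6 and 16 CPM in old knockout and 16.7, 16.9 and 6.71 in young knockout, so young wild type and young knockout replicate 3 were its low libraries.

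No member was called between young and old knockout, beside 0.0148% of all genes tested. An unadjusted p under 0.05 by edgeR was found for 16 members, 7.41% beside 9.72% of all genes. DESeq2 called 2, both lower in old knockout: Zfp423, a factor of fat cell commitment that is related to Zfp521, and Zfp82. Zfp423 fell short of the edgeR threshold, with 11.2, 12.5 and 22.1 CPM in the young knockouts against 6.76, 5.09 and 5.23 CPM in the old ones, without overlap (log2 -1.39, SE 0.28, adjusted p = 0.105 by edgeR). The median over the members was -0.13 and 52 of 216 had a positive value. The interaction is the change with age in the knockouts less the same change in wild-type mice. Again no member was called beside 0.0148% of all genes, and DESeq2 called 2, Zfp82 and Zfp217. By edgeR, 39 members (18.1%) had an unadjusted p under 0.05, beside 9.72% of all genes. The median of the interaction was -0.25 over the members and 0.01 over all genes.

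Zfp82 was the member with the clearest crossed pattern. It measured 5.14, 5.71 and 4.89 CPM in young wild-type libraries and 12.7, 10.1 and 12.7 in old ones, against 12.1, 12.7 and 7.70 in young knockout libraries and 3.61, 5.96 and 6.39 in old ones. Old wild type and young knockout were high, and young wild type and old knockout low. It was the single member called lower in old and higher in young knockout (log2 -1.16, SE 0.26, adjusted p = 0.011, and 1.07, SE 0.25, adjusted p = 0.010 by edgeR), and it was called both ways with GC offsets (-1.18 and 1.02), though in 1 of 6 fits at each age when 1 library was left out. The interaction was -2.23 (SE 0.36) with an adjusted p of 0.119 by edgeR and 4.0e-05 by DESeq2. Its neighbour Zfp566, which shares the readthrough transcript, measured 8.39, 8.33 and 12.7 CPM in young wild type and 10.9, 6.42 and 4.97 in young knockout, and did not pass in young mice (log2 -0.36, adjusted p = 0.38 by edgeR). Zfp217, homologous to a human gene amplified in breast cancer, held 97.5, 84.9 and 103 CPM in the young wild-type libraries, its low group. The old wild-type libraries held 144, 142 and 147 CPM, the young knockouts 145, 134 and 194 CPM, and the old knockouts 134, 108 and 114 CPM. It rose in young knockout (log2 0.72, SE 0.15, adjusted p = 0.0048 by edgeR; 0.85 with offsets), and in old mice its change was -0.28 (adjusted p = 0.20 by edgeR).

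**Figure D5:**
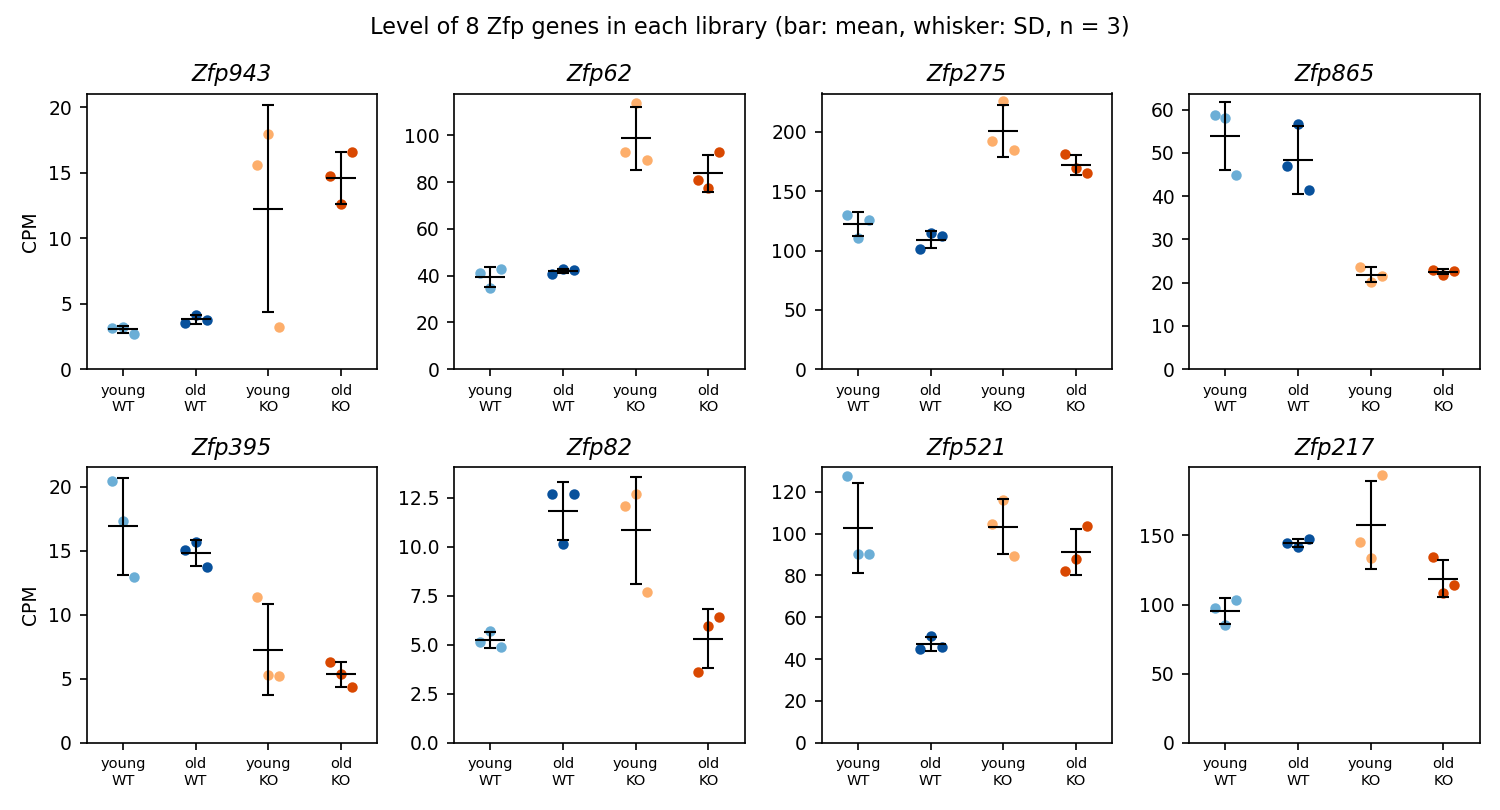
CPM after trimmed-mean scaling (vertical axis, from 0) of 8 Zfp genes in the 3 libraries of each group (points), with the mean as a bar and the SD as whiskers. Zfp62, Zfp275 and Zfp865 separate wild type from knockout, Zfp943 shows the low young knockout replicate 3, and Zfp82 is high in old wild type and young knockout.

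Partners of KRAB proteins and other chromatin genes were read as a group of their own. Of this list of corepressor and heterochromatin genes, not all of them known to act with KRAB proteins, 29 were found and 27 tested. In old mice 5 were higher in knockout (Cbx5, Smarcad1, Atrx, Trim24 and Trim33) and 1 lower (Ehmt1), 22.2% beside 16.7% of all genes. In young mice 6 were higher (Cbx5, Mphosph8, Morc3, Smarcad1, Atrx and Trim33) and 4 lower (Cbx1, Mbd3, Uhrf1 and Daxx), 37.0% beside 20.9%. Trim28, the corepressor itself, averaged 431 CPM over young and 387 CPM over old wild-type libraries, and 400 CPM over young and 429 CPM over old knockouts, with a log2 fold change of 0.15 in old mice (adjusted p = 0.48 by edgeR) and -0.10 in young mice (adjusted p = 0.62 by edgeR). Setdb1 was at -0.13 and 0.09. Atrx, a chromatin remodeller of 39.5% GC, rose by 0.58 and 0.86, and with GC offsets was at 0.06 and 0.18. With offsets 2 genes of the list were called in old mice, Trim24 (0.54) and Trim28 (0.46, adjusted p = 0.049 by edgeR), and 1 in young mice, Cbx1 (-0.64). These counts are 7.41% and 3.7% of the list's tested genes, close to or under the shares of all genes with offsets, 7.4% and 5.83%.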

How the data were processed

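RNA-seq of total RNA (stranded kit with ribosomal RNA removed, per the labels' protocols) was deposited as whole-number read counts per gene symbol, 1 file per library. TopHat, HTSeq, DESeq2 and the build mm9 are named in the submitters' processing notes; versions, strand setting and treatment of reads that align to several genes are not given in the sources used here, so overlapping, antisense and near-identical genes are uncertain. The 5 summary lines stayed out of library sizes and tests.

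Genes were filtered with filterByExpr, given trimmed-mean scaling factors and tested in edgeR 4.0.16 (R 4.3.3, quasi-likelihood, robust, 1 mean per group over 12 libraries). Signs are old minus young and knockout minus wild type, and SE is the log2 fold change over the square root of F. GC offsets are per-library lowess trends (span 0.2) of log2 CPM on GC content. GC content, length, fingers and KRAB boxes (a profile built with pyhmmer 0.12.3, E-value limit 1e-06) came from GENCODE M21; all 216 members matched, 10 through an older symbol, and 98.0% of tested genes. The code was tested on simulated data. The members, lists and tests were chosen with earlier results of these data known. Named genes are the 10 largest called changes without overlap between groups in each direction of a knockout comparison (5 or fewer in the others, else the 2 smallest p), the 10 called without and with GC offsets at the smallest p, the 10 highest by CPM, and the 3 nearest to the minimum on each side. The values for genes at 5 CPM or more in both genotype means were added after seeing the data. Members on chromosome 18 were left out of the sequences shown.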

Additional observations from a re-analysis of the deposited data

Results flagged for a closer look

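The age effect of 2 members differed between the genotypes by a test of the difference itself in DESeq2, and not in edgeR. For Zfp82 the change with age in knockout, less the same change in wild type, was -2.23 on the log2 scale (SE 0.36). The adjusted p was 0.119 by edgeR and 4.0e-05 by DESeq2, and 0.013 by edgeR without young knockout replicate 3. All 3 old wild-type libraries were above all 3 young ones, and all 3 old knockout libraries below all 3 young ones.

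For Zfp217 the same difference was -1.01 (SE 0.21), with an adjusted p of 0.264 by edgeR and 0.0047 by DESeq2. Its old wild-type libraries were above all young ones. Its old knockout libraries, at 134, 108 and 114 CPM, reached the lowest young one at 134 CPM.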

How the results depend on the processing

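The members called numbered 4, 60, 93, 0 and 0 for ageing in wild type, knockout in old mice, knockout in young mice, ageing in knockout and the interaction. In old mice it was 18 with GC offsets, 24 with GC and length offsets, 31 to 49 leaving out 1 library, and 11, 9, 1, 2, 1 and 8 leaving out 1 library with GC offsets (old knockout replicates 1 to 3, then old wild type replicates 1 to 3). In young mice it was 20, 24, 58 to 108 and, again knockout before wild type, 14, 4, 42, 9, 4 and 5 in the same order of settings, and 61 in a fit of the compared groups only. Leaving out 1 library gave 0 to 1 member for ageing in wild type (0 to 1 with GC offsets), 0 to 1 for ageing in knockout (0 to 1) and 0 to 5 for the interaction (0 to 2). DESeq2 called 8 members for ageing in wild type, 2 for ageing in knockout and 2 for the interaction, and a fit of the compared groups only called 16 for ageing in wild type. Without a low-count filter 1 member was called for ageing in knockout and 1 for the interaction, and with library size alone 1 for the interaction. The number of all genes called also moved with the setting. In old mice it was 2265 without and 1002 with GC offsets, and in young mice 2831 and 790. The share of all genes is not given beside most other settings, here or above. Those counts cannot be read as particular to the members.

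Settings chosen after seeing the data left out pairs of libraries. Without the pair with most reads outside genes, 0 members were called for ageing in wild type and 0 for knockout in old mice. Without the pair with Y-linked reads, 4 were called in old mice. Without the pair with most Lars2 counts, 34 were called in old and 42 in young mice. The cause of these changes was not tested, beyond the smaller number of libraries. The median over the members for knockout in old mice turned from 0.06 to -0.03 with GC offsets or GC and length offsets, to -0.04 with the replicate block and GC offsets, to -0.20 with library size alone, and to -0.02 to 0.00 with GC offsets and 1 library left out.

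The labels number libraries 1 to 3 in each group, but same-numbered libraries did not deviate together (correlations of -0.26 to 0.23), so the numbers were not used as pairs. With the replicate number as a block, 2 members were called for ageing in wild type, 51 for knockout in old mice and 79 in young mice; with the block and GC offsets, 2, 10 and 12. Levels near 5 CPM rest on few counts in the shallowest libraries, which limits small changes.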

Other observations

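Zfp genes below the minimum were read the same way. Of the 120 Zfp genes under 5 CPM, 81 were tested and 3 were at 0 in all libraries. In young mice 20 of the 81 were higher in knockout and 1 lower, with a median log2 fold change of 0.73, and 0.28 with GC offsets; 25.9% were called beside 20.9% of all genes. In old mice 7 were higher and 3 lower, 12.3% beside 16.7% of all genes, with a median of 0.01.

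Other zinc finger families were counted beside them, where 16.7% of all genes were called in old and 20.9% in young mice. Of 30 Zbtb genes tested, whose products pair a BTB domain with C2H2 fingers, 6 were higher and 2 lower in old knockout and 6 higher and 1 lower in young knockout (26.7% and 23.3%, medians 0.00 and 0.25). Of 15 Klf genes, 1 was higher and 1 lower in old knockout and 1 higher and 4 lower in young knockout (13.3% and 33.3%). The Zdhhc genes, palmitoyltransferases whose zinc finger binds no DNA, had 1 of 19 higher and 1 lower in old mice and 3 higher and 2 lower in young mice (10.5% and 26.3%, medians -0.02 and 0.01). None of 7 Zscan genes was called by edgeR in either comparison.

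Members that are neighbours on a chromosome varied in how far they moved together. On chromosome 17 a run of 8 KRAB members, Zfp51, Zfp53, Zfp52, Zfp948, Zfp760, Zfp229, Zfp942 and Zfp943, with a median GC content of 38.6%, had 5 higher in old and 7 higher in young knockout, with medians of 0.86 and 1.33, and 0.35 and 0.58 with GC offsets. On chromosome 7 a run of 12 members that holds Zfp568, Zfp82 and Zfp566, with a median GC content of 47.6%, had 1 higher and 2 lower in old knockout and 4 higher in young knockout, with medians of 0.00 and 0.35. Runs were chosen among the members by position alone, with at most 3 other genes between neighbours. Zfp51, Zfp229, Zfp942 and Zfp943 in the chromosome 17 run reached the minimum only through the knockout libraries, as did Zfp14 and Zfp420 in the chromosome 7 run. The counts and medians of the runs are therefore partly a description of the choice. Over all genes, 9.52% were higher and 7.21% lower in old knockout, and 10.9% and 10% in young knockout.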
